A study of Mus musculus with 2 samples.

Results

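The Sox transcription factors described here are Sox1, Sox2, Sox21, Sox4, Sox11, Sox5, Sox6, Sox8, Sox9 and Sox10. They were taken by gene symbol, each symbol was tied to its gene identifier through the transcript tables, and all 10 were found among the 55536 annotated genes. The samples were hippocampus of female B6CASTF1/J mice, an F1 hybrid of C57BL/6J and CAST/EiJ, at 10 days of age, with no genetic change or treatment named in the labels. Total RNA was sequenced after ribosomal RNA was reduced, in 2 stranded libraries, biological replicates 2 and 1 of 1 group, each from 300 ng of RNA pooled from 3 females. The tissue is labelled as a hippocampal layer that is not named further, and pooling hides how single mice differ. With 1 group there was no contrast of conditions, and the Sox genes were compared with each other and between replicate 2 and replicate 1.

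Sox proteins share the HMG box, a DNA-binding domain first known from Sry, and are sorted into subgroups by its sequence. In the developing brain SoxB1 proteins maintain neural progenitors, SoxB2 proteins oppose them, SoxC proteins act in newborn neurons, and SoxD and SoxE proteins steer glial cells and some neurons. SoxE proteins are best known here for making glia, with Sox9 in astrocytes and Sox10 in the oligodendrocyte lineage that builds myelin.

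The shared domain is shown first because it sorts the genes and because near-identical sequence could make reads hard to place. The stretch compared was 225 coding bases of the HMG box in the leading coding transcript of each gene, read from the GENCODE M21 transcripts of mouse build mm10. The first 60 bases are given 5′ to 3′ for 7 of the genes, with capitals marking bases alike in all 10. Sox2 and Sox21 stand for the close pair across subgroups, Sox4 with Sox11 and Sox9 with Sox10 for pairs within one, and Sox5 for SoxD.
Sox2: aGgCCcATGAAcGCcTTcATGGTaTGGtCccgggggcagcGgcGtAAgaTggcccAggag
Sox21: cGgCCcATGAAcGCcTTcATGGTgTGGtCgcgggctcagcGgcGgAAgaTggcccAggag
Sox4: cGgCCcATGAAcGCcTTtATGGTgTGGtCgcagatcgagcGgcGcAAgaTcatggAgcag
Sox11: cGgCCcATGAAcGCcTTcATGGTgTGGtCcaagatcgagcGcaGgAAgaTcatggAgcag
Sox5: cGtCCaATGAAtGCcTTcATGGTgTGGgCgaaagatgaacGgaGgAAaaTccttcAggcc
Sox9: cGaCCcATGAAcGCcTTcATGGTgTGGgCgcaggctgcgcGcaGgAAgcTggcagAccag
Sox10: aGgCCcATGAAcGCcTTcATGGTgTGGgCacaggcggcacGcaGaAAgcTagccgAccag

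Over the whole stretch 80 of the 225 bases, 35.6%, were alike in all 10 genes, and 27 of those lay in the first 60. Identity within a subgroup was 81.3% to 89.8% over 6 pairs, and identity between subgroups was 52.0% to 87.6% over 39 pairs. Sox1 with Sox2 was the most alike pair at 89.8%, Sox4 with Sox11 reached 89.3%, and Sox6 with Sox8 was the least alike at 52.0%. Sox21 had 87.6% identity with both Sox1 and Sox2, the highest value across subgroups. The stretch lay in 1 exon in the SoxB and SoxC genes and was split over 2 exons in the SoxD and SoxE genes.

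The tables differed in whether the reads of these genes came out whole, that is, were not divided with another gene or entry. In the alignment-based table the expected counts of all 10 genes were whole numbers in both libraries, to within 0.005, as were those of 84.7% of 15465 protein-coding genes tested. Estimated counts of the read-based table were whole for 5 of the 10 and not for Sox1, Sox4, Sox11, Sox5 and Sox9, against 7735 of the same protein-coding genes.

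Replicate 2 held 32275110 expected counts and replicate 1 held 29858328. Spike-ins, synthetic RNAs added in known amounts, took 0.393% of replicate 2 and 0.341% of replicate 1. Levels are in TPM, a per-length measure of abundance that sums to the same total in each library, from the alignment-based gene table unless the read-based table is named. Hippocampal neuron markers were all present, 9 of 9 at a TPM of 1 or more in both libraries. Among 12072 protein-coding genes with 200 or more counts, the log2 ratio of replicate 2 over replicate 1 had a median of 0.04 and an SD of 0.23, and 98.3% lay within 1.5-fold.

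All 10 Sox genes were detected, with a TPM of 1 or more in both libraries, as were 27.0% of all annotated genes and 59.1% of the 22015 nuclear protein-coding genes. They spanned about the middle of the detected protein-coding range: Sox4 stood above 73.9% of those genes and Sox1 above 22.5%. Their summed level was 181 TPM in replicate 2 and 192 TPM in replicate 1, which was 0.0406% and 0.0425% of protein-coding TPM. Subgroup sums cover the 10 genes only and leave out Sox12 of SoxC, Sox13 of SoxD and Sox3 of SoxB1. SoxC genes summed to 59.5 ± 4.65 TPM and SoxE genes to 57.2 ± 0.170 TPM (SD, n = 2 libraries). SoxD genes followed with 34.6 ± 4.28 TPM, SoxB1 genes with 29.0 ± 0.884 TPM, and Sox21, the one SoxB2 gene of the 10, with 6.05 ± 0.460 TPM. In replicate 2 the SoxE sum of 57.1 TPM passed the SoxC sum of 56.2 TPM. In replicate 1 SoxC had 62.8 TPM and SoxE 57.3 TPM, so these sums did not separate in the alignment-based table. Sox12, left out of the SoxC sum, had 13.6 TPM in replicate 2 and 16.7 TPM in replicate 1. With Sox12 added, SoxC was above SoxE in both libraries. In the read-based table SoxC was above SoxE in both libraries even without Sox12. SoxC had 85.5 TPM there in replicate 2 and 95.3 TPM in replicate 1, and SoxE had 79.7 TPM and 78.0 TPM.

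By mean TPM the order was Sox4, Sox8, Sox11, Sox2, Sox5, Sox10, Sox6, Sox9, Sox21 and Sox1. The ranges of the libraries did not overlap for 39 of the 45 pairs and for 4 of the 9 neighbouring pairs. Those neighbours were Sox4 above Sox8, Sox5 above Sox10, Sox10 above Sox6, and Sox9 above Sox21. Sox11 overlapped Sox8, Sox2 and Sox5, Sox2 overlapped Sox5, Sox6 overlapped Sox9, and Sox21 overlapped Sox1. In the read-based table Sox4 again came first and Sox1 last, Sox11 and Sox2 passed Sox8, Sox9 passed Sox6, and 5 neighbouring pairs were apart.

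**Figure D1:**
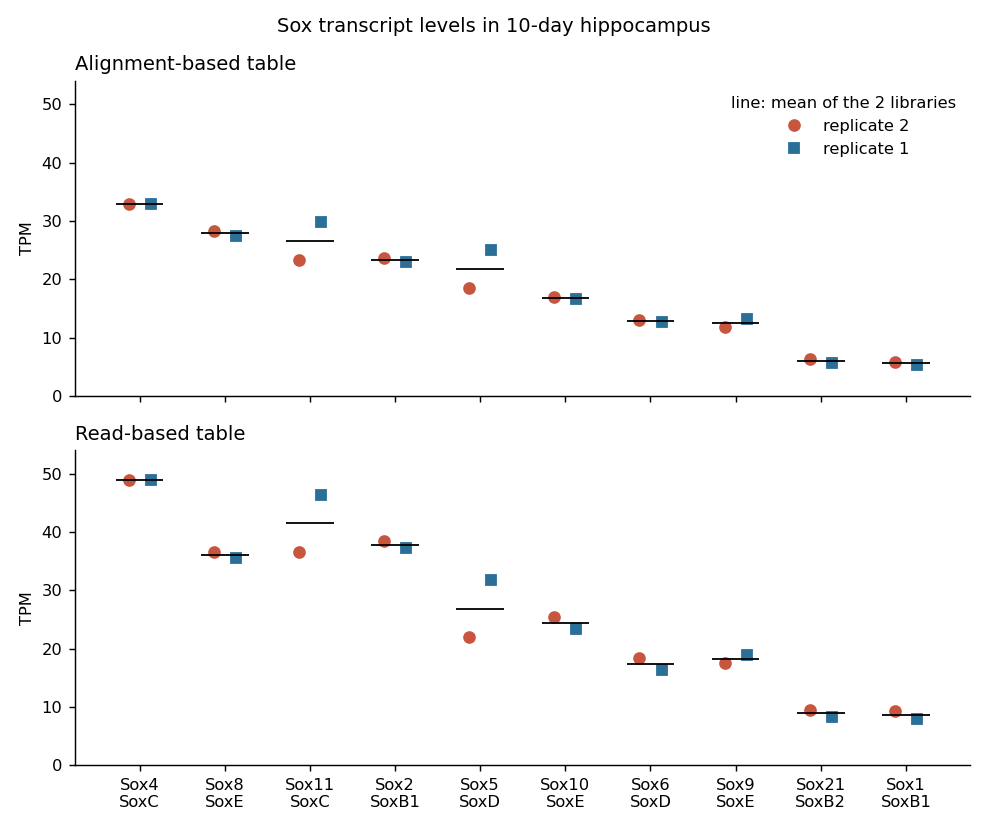
TPM (y axis) of the 10 Sox genes (x axis, with subgroup) in replicate 2 and replicate 1, in the alignment-based table above and the read-based table below, with a line at the mean of both libraries. Sox4 is the highest gene in both tables, Sox21 and Sox1 are the lowest, and Sox11 and Sox5 have the widest gap between libraries.

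Sox4 and Sox11, the SoxC factors of immature neurons, are both made from 1 exon. Sox4 (chromosome 13, 28948919 to 28953713, minus strand) had 32.8 TPM in replicate 2 and 33.0 TPM in replicate 1, a mean of 32.9 ± 0.0778 TPM. The libraries were nearly level for Sox4. Sox11 (chromosome 12, 27334264 to 27342574, minus strand) had 23.4 TPM in replicate 2 and 29.9 TPM in replicate 1, from 4355 and 5064 expected counts. Sox11 thus held more reads than Sox4, with 3496 in replicate 2 and 3197 in replicate 1, but its transcript is longer, 8311 bases against 4795 bases. Per length, Sox4 was above Sox11 in both libraries, with a log2 ratio of 0.31 ± 0.24. Sox12, also of SoxC, had 13.6 TPM in replicate 2 and 16.7 TPM in replicate 1, and its log2 ratio to Sox4 was -1.12 ± 0.20.

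Sox2 and Sox1, the SoxB1 progenitor factors, differed most within a subgroup among the 10 genes. Sox2 (chromosome 3, 34650405 to 34652461, plus strand), which also stays on in astrocytes, had 23.7 TPM in replicate 2 and 23.1 TPM in replicate 1. Sox1 (chromosome 8, 12395295 to 12400126, plus strand) had 5.91 TPM in replicate 2 and 5.28 TPM in replicate 1. Sox2 was 4.13-fold above Sox1, a log2 ratio of 2.05 ± 0.09, and the ranges did not overlap. The remaining SoxB1 gene, Sox3 on the X chromosome, had 2.85 TPM in replicate 2 and 3.23 TPM in replicate 1, below both. Sox21 (chromosome 14, 118233232 to 118237030, minus strand), a SoxB2 repressor, had 6.38 TPM in replicate 2 and 5.73 TPM in replicate 1, a range that overlapped that of Sox1.

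Sox8, Sox9 and Sox10, the SoxE factors, kept the same order in both libraries. Sox8 (chromosome 17, 25565892 to 25570686, minus strand), which works beside Sox9 and Sox10 in the oligodendrocyte lineage, had 28.3 TPM in replicate 2 and 27.4 TPM in replicate 1. Sox10 (chromosome 15, 79154908 to 79165240, minus strand), an activator of myelin genes, had 16.9 TPM in replicate 2 and 16.7 TPM in replicate 1. Sox9 (chromosome 11, 112782224 to 112787760, plus strand), a factor of glial fate, had 11.9 TPM in replicate 2 and 13.2 TPM in replicate 1. The 3 genes did not overlap one another in either table. Sox8 was 2.21-fold above Sox9 and 1.66-fold above Sox10, with log2 ratios of 1.15 ± 0.14 and 0.73 ± 0.01. In bulk tissue fewer cells of a type and less RNA per cell cannot be told apart, so these levels do not say how many cells express each gene.

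Sox5 and Sox6, the SoxD factors, lack an activation domain of their own and work with other Sox proteins. Sox5 (chromosome 6, 143828425 to 144781977, minus strand) had 18.5 TPM in replicate 2 and 24.96 TPM in replicate 1, a mean of 21.7 ± 4.55 TPM. Sox6 (chromosome 7, 115470872 to 116038796, minus strand) had 13.1 TPM in replicate 2 and 12.7 TPM in replicate 1. Sox5 was the higher of the pair in both libraries, with a log2 ratio of 0.74 ± 0.33. Leaving out the short transcript Sox5-208, with short Sox6 transcripts kept, put Sox5 below Sox6 in replicate 2. The libraries differed for Sox5 but hardly for Sox6. Sox13, the other SoxD gene, was lower than both, with 4.96 TPM in replicate 2 and 4.50 TPM in replicate 1.

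Of the 10 further Sox genes in the annotation, 6 were at a TPM of 1 or more in both libraries. Besides Sox12, Sox13 and Sox3 these were the SoxF genes, which act in blood vessels. Sox18 had 7.34 TPM in replicate 2 and 7.92 TPM in replicate 1, Sox17 had 5.23 TPM and 5.21 TPM, and Sox7 had 1.92 TPM and 1.80 TPM. Sox18 was thus above Sox21 and Sox17 below it in both libraries. Sox30 had 10 counts in replicate 2 and 5 in replicate 1, Sox14 had 1 and 3, and Sox15 had 1 and 2. Sry, a gene of the Y chromosome, had 0 counts in both libraries of these females, which allows up to 3 counts in each.

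No Sox gene was past 2-fold between the libraries, that is, had a log2 ratio of expected counts of 1 or more either way, against 6.08% of the 20544 genes tested (1.64% higher and 4.45% lower in replicate 2). The share was 2.63% among protein-coding genes tested and 0.290% among those with 200 or more counts, so 0 of 10 is close to the background. With normalization to TMM library sizes, 7 of the 10 were higher and 3 lower in replicate 2. Among the 15465 protein-coding genes tested, 8462 were higher and 7003 lower, so the Sox split is not far from the background. Scaled to the spike-ins, however, all 10 were lower, with ratios of -0.66 to -0.02. Spike-in scaling moved the median protein-coding gene to -0.26, and the Sox median of -0.18 lay above it. With TMM the Sox median was 0.10 and the median protein-coding gene 0.03.

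Sox5 and Sox11 had the lowest ratios. Sox5 had 1476 expected counts in replicate 2 and 1875 in replicate 1, a log2 ratio of -0.38 with a 95% counting interval of -0.48 to -0.28. Of the 12072 protein-coding genes with 200 or more counts, 6.95% had a ratio at least as far from 0. For Sox11 the log2 ratio was -0.25, with an interval of -0.31 to -0.19, and 19.5% of those genes lay as far from 0. At the other end Sox1 had 634 expected counts in replicate 2 and 516 in replicate 1, a log2 ratio of 0.26 (0.09 to 0.43). Sox21, with 535 and 438 counts, had 0.25 (0.07 to 0.44), and the other 6 genes lay between -0.06 and 0.16. These intervals cover counting error only, and with 1 library on each side no test was made.

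**Figure D2:**
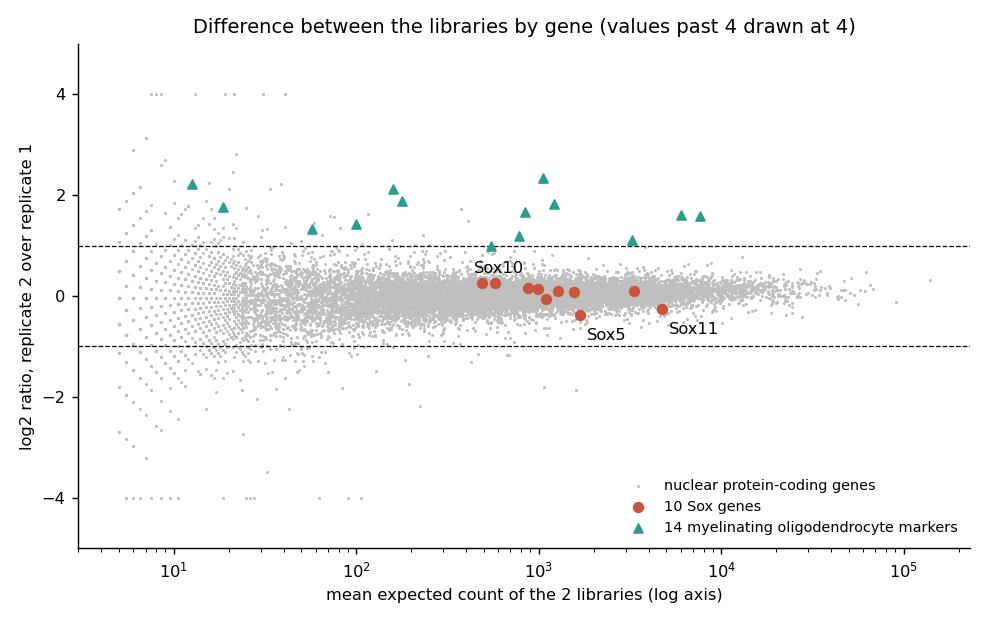
Log2 ratio of replicate 2 over replicate 1 (y axis) against the mean expected count of both libraries (x axis, log scale) for protein-coding genes, with the 10 Sox genes as circles, 14 markers of myelinating oligodendrocytes as triangles and dashed lines at 2-fold. With TMM the Sox genes lie between -0.38 and 0.26 and the myelin markers between 1.00 and 2.33. Scaled to spike-ins, the Sox genes are all below 0 and the myelin median is 1.36.

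Markers of the cells that use these factors were set beside them. Markers of myelinating oligodendrocytes stood apart, with 13 of 14 past 2-fold and higher in replicate 2, against 1.64% of all genes tested, and a median log2 ratio of 1.64. These values are with TMM, and scaled to spike-ins the median was 1.36. Mbp, a main myelin protein, had 253 TPM in replicate 2 and 80.5 TPM in replicate 1, and the list summed to 633 TPM and 218 TPM. Sox10 had a log2 ratio of 0.16 (0.03 to 0.30) and Sox8 0.07 (-0.03 to 0.17), both below 1.00, the lowest ratio of the myelin list. Markers of oligodendrocyte precursors, which also express Sox10, had a median of 0.10 with 0 of 10 past 2-fold. Of these Pdgfra, the growth factor receptor of these cells, had 41.2 TPM in replicate 2 and 41.0 TPM in replicate 1, and Olig1 had 85.6 TPM and 76.1 TPM.

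Markers of Schwann and neural crest cells, which also express Sox10, were low. Cdh19, a cadherin of these cells, had 19 counts in replicate 2 and 5 in replicate 1, and Foxd3 had 0 in both. The list summed to 13.2 TPM in replicate 2 and 11.8 TPM in replicate 1, most of it Pmp22, with 9.02 TPM and 8.02 TPM, and its median log2 ratio was 0.30. Of its 6 genes tested, 2 were past 2-fold and higher in replicate 2, against 1.64% of all genes tested. Cdh19 was among them, with a log2 ratio of 1.79.

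Astrocyte markers had a median of 0.19, 0 of 12 past 2-fold, and sums of 3386 TPM in replicate 2 and 3109 TPM in replicate 1. Sox9 had -0.06 (-0.18 to 0.07) and Sox2 0.14 (0.01 to 0.27) beside them. Radial glia and progenitor markers had a median of -0.01, again with none of 12 past 2-fold. Within that list Fabp7, a fatty acid binding protein of radial glia, had 210 TPM in replicate 2 and 278 TPM in replicate 1, whereas Hopx had 39.0 TPM and 33.7 TPM. Their log2 ratios were -0.30 and 0.30, so the list did not move one way.

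Sox11 and Sox5 were read beside the neuronal lists. Immature neuron markers had a median of 0.03, with 0 of 11 past 2-fold, 6 higher and 5 lower in replicate 2, and ratios of -0.49 to 0.32. The 4 genes with the highest levels were among the 5 with ratios below 0. Dcx, a microtubule protein of migrating neurons, had 47.7 TPM in replicate 2 and 69.1 TPM in replicate 1, a log2 ratio of -0.39. Dpysl3 had -0.42, Tubb3 had -0.27 and Stmn2 had -0.13, and the list summed to 1405 TPM in replicate 2 and 1769 TPM in replicate 1. Deep-layer projection neurons, which use Sox5 in the cortex, had markers with a median of -0.11. There 1 of 8 genes, Foxp2, was past 2-fold and lower in replicate 2, against 4.45% of all genes tested. Foxp2 had 74 counts in replicate 2 and 146 in replicate 1, and Nr4a2 had 19.1 TPM in replicate 2 and 33.0 TPM in replicate 1. Crym, Bcl11b and Fezf2 of the same list had ratios of 0.01, 0.09 and -0.14.

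Interneuron markers, set beside Sox6 for its role in these cells, had a median of 0.22. Of these 1 of 11 was past 2-fold, against 6.08% of all genes tested. That gene was Pvalb, with 7.54 TPM in replicate 2 and 3.00 TPM in replicate 1, and Sox6 had a log2 ratio of 0.10 (-0.01 to 0.22). Hippocampal neuron markers had a median of 0.14. The remaining lists had medians of 0.12 for endothelium, 0.28 for microglia, 0.11 for mural and meningeal cells and 0.14 for choroid plexus and ependyma. In the last of these Ttr, a choroid plexus protein, had 670 TPM in replicate 2 and 422 TPM in replicate 1. Whether any of these differences between the pools bears on the Sox levels was not tested.

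**Figure D3:**
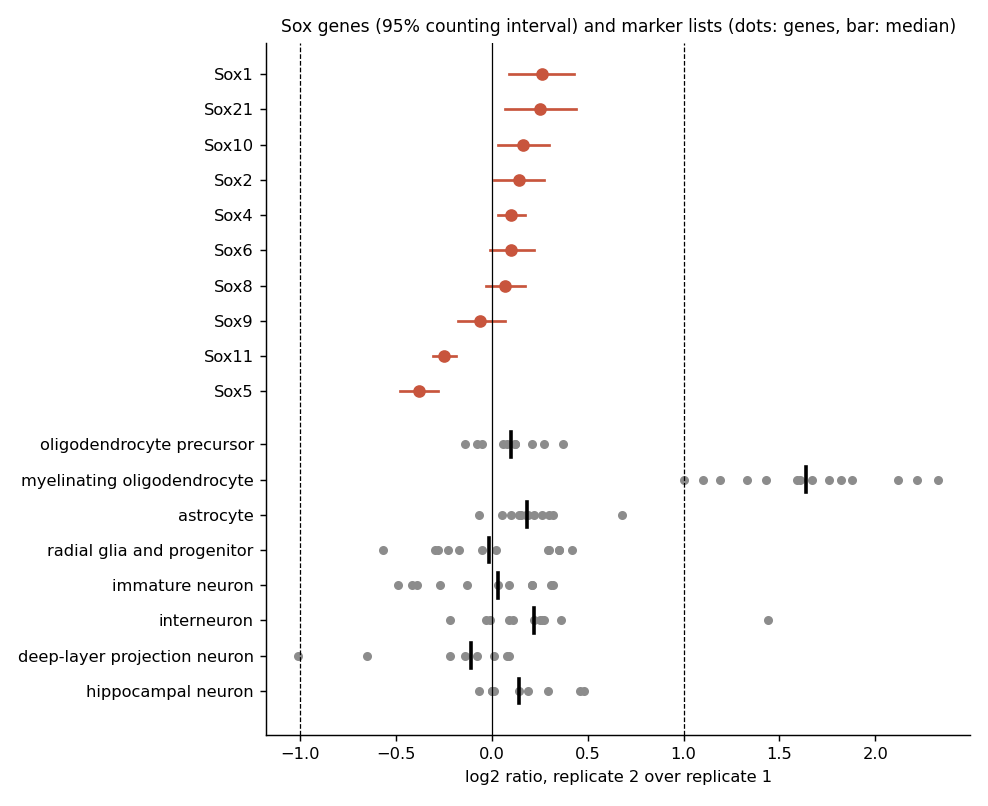
Log2 ratio of replicate 2 over replicate 1 (x axis) for the 10 Sox genes with 95% counting intervals, and for genes of 8 marker lists (dots) with each list's median (bar) and dashed lines at 2-fold. The Sox genes lie between -0.38 and 0.26 (all below 0 when scaled to spike-ins). The myelinating oligodendrocyte list, at a median of 1.64 (1.36 when scaled to spike-ins), is the one list whose median is past 2-fold.

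Of the 10 genes, 6 have 1 annotated transcript and 4 have several. Sox1, Sox2, Sox21, Sox4 and Sox11 are single-exon genes spanning 2.06 to 8.31 kb, and Sox9 has 3 exons. Sox5 spreads 14 transcripts over 954 kb and Sox6 16 transcripts over 568 kb, while Sox8 has 3 and Sox10 has 4. For the genes with 1 transcript, the gene level is the transcript level.

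The level of Sox5 rested in part on a short annotated transcript. Sox5-208, a non-coding transcript of 351 bases, had 5.62 TPM in replicate 2 and 6.12 TPM in replicate 1, which was 30.3% and 24.5% of Sox5 TPM. Only 32.1 and 31.9 expected counts lay behind those values, 2.17% and 1.70% of the gene's reads, and all 351 of its bases are exonic in other Sox5 transcripts. In the read-based table Sox5-208 was at 0. Without it, a comparison chosen after seeing the data, Sox5 had 12.9 TPM in replicate 2 and 18.8 TPM in replicate 1, a mean of 15.9 ± 4.20 TPM, and its range overlapped those of Sox10, Sox6 and Sox9. In replicate 2 it then stood below Sox6, at 13.05 TPM with the short Sox6 transcripts kept, and in replicate 1 above it. By coding forms with at least 75% of the longest coding length, Sox5 was above Sox6 in both libraries. For these forms Sox5 had 8.91 TPM in replicate 2 and 11.8 TPM in replicate 1, and Sox6 had 6.93 TPM and 7.09 TPM. The 4 coding forms with at least 75% of the longest coding length held 85.6% of Sox5 reads in replicate 2 and 82.9% in replicate 1. Sox5-201, of 763 codons, led with 56.4% and 59.2% of reads. The 3 shorter coding forms had 0 counts in both libraries, although the read-based table gave them 0.113% of reads in replicate 1. Retained-intron transcripts took 14.2% of Sox5 TPM in replicate 2 and 20.6% in replicate 1.

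Sox6 was led in both tables and both libraries by Sox6-210, of 786 codons, with 75.8% of reads in replicate 2 and 77.6% in replicate 1. By TPM, which divides reads by transcript length, that share was 39.9% and 42.0%. Coding forms under 75% of the longest coding length took 20.2% of Sox6 TPM in replicate 2 and 17.1% in replicate 1, from 1.34% and 0.920% of reads, and had 0 in the read-based table. Sox8 was led by Sox8-201, of 464 codons, with 80.9% of TPM in replicate 2 and 87.2% in replicate 1.

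For Sox10 the tables named different leading transcripts. The alignment-based table put 71.3% of Sox10 TPM in replicate 2 and 57.0% in replicate 1 on Sox10-201. The read-based table put 90.4% and 82.0% on Sox10-203. Both encode the same 466 codons, with 0 coding bases that differ. All 2713 bases of Sox10-201 are also in Sox10-203, which has 67 more, 46 of them in an added first exon. The 2 forms together held 96.4% of Sox10 reads in replicate 2 and 94.7% in replicate 1, and the bases by which they differ are all non-coding.

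**Figure D4:**
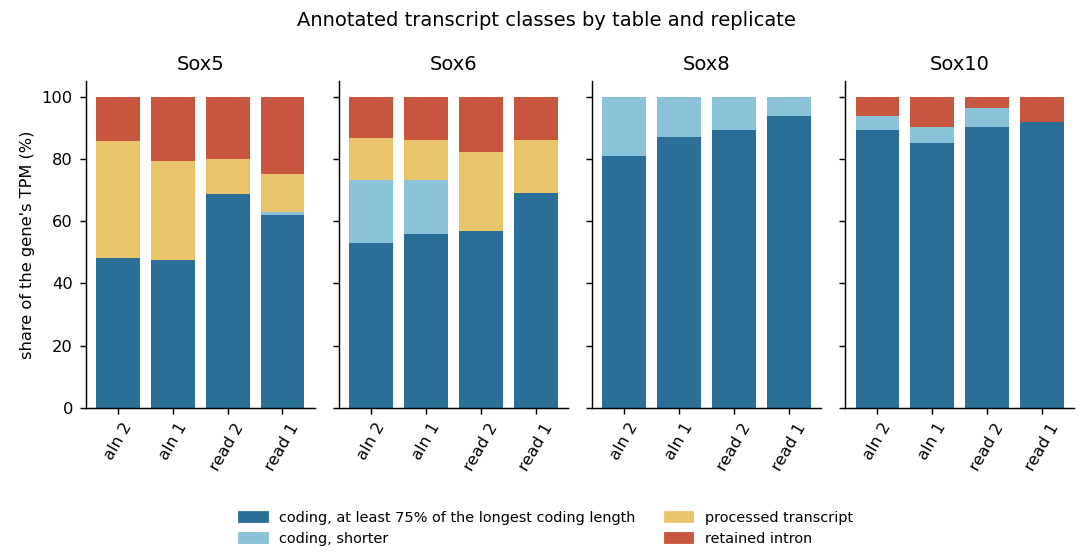
Share of each gene's TPM (y axis, %) by class of annotated transcript for Sox5, Sox6, Sox8 and Sox10, in the alignment-based table (aln) and the read-based table (read) of replicates 2 and 1. Coding forms with at least 75% of the longest coding length hold 48.1% and 47.4% of Sox5 TPM in the alignment-based table. In the read-based table they hold 68.8% and 61.9%, and in both tables they hold most of Sox8 and Sox10 TPM.

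Other annotated genes overlap 7 of the 10 Sox genes, and Sox9, Sox10 and Sox11 have none. Sox2ot, a long non-coding RNA that spans Sox2 on the same strand, had 11.4 TPM in replicate 2 and 12.3 TPM in replicate 1, and shares 0 exonic bases with Sox2. Sox1ot, which spans Sox1 in the same way, had 4.17 TPM and 3.85 TPM. The antisense gene 2810468N07Rik had 12.1 TPM in replicate 2 and 10.1 TPM in replicate 1 and covers 329 exonic bases of Sox8, 10.6% of them. Gm26735 covers 54.6% of the exonic bases of Sox4 from the opposite strand but had 8 counts in replicate 2 and 9 in replicate 1. Gm4675, opposite Sox21, had 19 and 11 counts. The antisense genes Sox5os1 to Sox5os5 had 0 counts in both libraries, and Sox6os had 1 in replicate 2 and 0 in replicate 1. The libraries are labelled as stranded, but the sources used here do not say whether counting used the strand. Counts of Sox8 were whole in both tables, so by that measure its reads were not divided with another gene. How reads in the shared bases of Sox8 were placed was not tested.

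The regions around the transcription starts differed in CpG content, the CG pairs that mark many developmental promoters. RefSeq windows of 300 bases, 250 before and 50 after a start on GRCm38.p6, were on hand for 8 of the 10 genes. The median of all 32851 windows was 7 CpG. Sox1 had 37, more than 94.4% of all windows, Sox2 had 27, Sox21 had 22, and Sox11 and Sox8 had 21 each. Sox4 had 12, and the 6 windows of Sox6 had 2 to 13, of which only the window with 11 lay at the gene's 5′ end. Sox5 had 3, in a window at a start inside the gene and not at its 5′ end. The windows of Sox2 and Sox11 lay wholly before the start of the gene in the M21 annotation. The most CpG-dense window thus belonged to Sox1, the gene with the lowest level of the 10.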

How the data were processed

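The members and the marker lists were chosen with earlier results of these data known. Expected counts, per the file headers, are reads estimated for each gene or transcript and not normalized. TPM in the authors' tables is per length and sums to the same total in each library with spike-ins counted in, and FPKM in the deposited gene tables was used in 1 alternative. The alignment-based tables were estimated from transcriptome alignments and the read-based tables from reads and an index, on mm10 with annotation M21, per the file headers and deposited notes. The sources used here do not name programs, versions or filters.

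Ratios of replicate 2 over replicate 1 used rounded expected counts plus 0.5 and TMM library sizes (edgeR 4.0.16), for genes whose counts over both libraries came to 10 or more, with exact 95% Clopper-Pearson intervals for counting error. A log2 ratio of 1 either way was called 2-fold, and no p-value was computed with 1 library on each side. Read-based transcripts were summed per gene. Named genes were the 10 members, 10 other Sox genes, genes overlapping a member, the 4 highest of each of 13 marker lists, and list genes past 2-fold, of which the text gives those beside a Sox gene. One list gene is not reported here. The libraries were no duplicate deposit, with a mean chi-square of 18.4 per gene. Tested on simulated data of 20592 genes, the ratio step called 100 of 100 genes changed 4-fold and 0 of 12726 unchanged genes with 200 or more counts. The simulated libraries differed by counting error only, so this checks the computation and gives no error rate for the real libraries. Software was R 4.3.3, DESeq2 1.42.0 for 1 alternative, Python 3.11.15, numpy 2.4.6, pandas 2.3.3, scipy 1.17.1 and Biopython 1.88.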

Additional observations from a re-analysis of the deposited data

How the results depend on the processing

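All 10 Sox genes stayed detected and 0 passed 2-fold under every alternative run. The count of all genes past 2-fold, 1250 with 26.9% higher in replicate 2, was 1957 (9.86% higher) with spike-in scaling, 6709 (41.0%) without a filter on low counts and 317 (19.2%) with a filter of 50 counts. Total-count scaling gave 19.2% higher. Summed levels over the 10 genes, for SoxC, SoxE, SoxD, SoxB1 and Sox21, followed the unit. They were 90.4, 78.8, 44.2, 46.5 and 8.91 TPM in the read-based table, 41.5, 39.9, 24.1, 20.2 and 4.22 FPKM, and 133, 128, 77.1, 64.6 and 13.5 when TPM was rescaled over protein-coding genes. By the mean, SoxB1 passed SoxD in the read-based table, but the libraries differed and the ranges overlapped. SoxB1 had 47.8 TPM against 40.4 TPM for SoxD in replicate 2, and 45.3 TPM against 48.1 TPM in replicate 1. The cause was not tested. The leading transcript was the same in both tables for 2 of 4 genes. Sox5, at 21.7 TPM, was 15.9 TPM without Sox5-208, an alternative chosen after seeing the data. Of 80 recomputed Sox log2 ratios 65 stayed within the spread, and the 7 Sox genes higher in replicate 2 were lower with spike-in scaling. No paired analysis was possible because the series has 1 group. Depth gave every Sox gene at least 438 counts per library, but counting error still spans 0 for Sox6, Sox8 and Sox9, and 1 library on each side limits every comparison.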
